A study of Strongylocentrotus purpuratus with 2 samples.

Results

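NW_022145606.1 and NW_022145594.1 are the long genomic sequences on which the fewest open chromatin regions per Mb were called in whole embryos of the purple sea urchin Strongylocentrotus purpuratus. Every peak placed on either sequence is described here. They numbered 1796 of 29456 peaks in replicate 1 and 2239 of 32554 in replicate 2, or 4035 of 62010 over both lists. NW_022145606.1 held 801 of them in replicate 1 and 1007 in replicate 2, and NW_022145594.1 held 995 and 1232. The material was wild-type (wt) whole embryo at 48 hours post fertilization (hpf), grown at 15°C in ASW, with 2 replicates and no other genotype, treatment or stage. All cell types of the embryo were assayed together, so a region that was open in few cells and one that was weakly open in many cells cannot be told apart.

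ATAC-seq finds open chromatin through the transposase Tn5, which inserts sequencing adapters where DNA is not tightly covered by nucleosomes. In animal genomes such regions include active promoters, which lie at gene starts, and enhancers, which bind transcription factors and can lie far from the gene they control. Sea urchin embryos are a long-studied system for the gene regulatory networks that these elements form. Stretches with few accessible regions are often poor in genes or rich in repeats, and short reads from repeats are hard to place. Genes, repeats and base sequence of these positions were not analysed here.

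The lists place peaks on 112 sequences. Of these, 21 are long, with a last peak beyond 20 Mb, and they span 30.0 to 62.1 Mb, while the next one spans 4.94 Mb. Each length is the last base covered by a peak and so is a lower bound. NW_022145606.1 spans 52.4 Mb and NW_022145594.1 spans 53.04 Mb. Both were selected on their peak density, the lowest of the 21 in each list, so density and the measures tied to it are given as a description without a test. The spread between the replicates rests on n = 2, and nothing in the labels says whether they came from separate cultures.

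Density was 15.3 peaks per Mb in replicate 1 and 19.2 in replicate 2 on NW_022145606.1, a mean of 17.2 ± 2.78 (SD, n = 2). On NW_022145594.1 it was 18.8 and 23.2, a mean of 20.99 ± 3.16 (SD, n = 2). The sequence just outside the choice, NW_022145602.1, had 28.4 ± 4.08 peaks per Mb (SD, n = 2), and the densest, NW_022145611.1, had 52.9 ± 2.65. In both replicates the chosen sequences were the lowest of the 21, and replicate 2 of each still lay below replicate 1 of every other long sequence. Relative to the median of the other 19 sequences, density was 0.459 times as high in replicate 1 and 0.504 times in replicate 2 on NW_022145606.1, and 0.564 and 0.610 times on NW_022145594.1. The first sequence made up 6.34% of the summed length of the 21 and held 2.84% of their peaks in replicate 1 and 3.25% in replicate 2. For the second, 6.42% of the length held 3.53% and 3.98% of the peaks. Peaks covered 0.322% of NW_022145606.1 in replicate 1 and 0.416% in replicate 2, and 0.413% and 0.527% of NW_022145594.1, against at least 0.590% and 0.715% on the other 19 sequences.

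**Figure D1:**
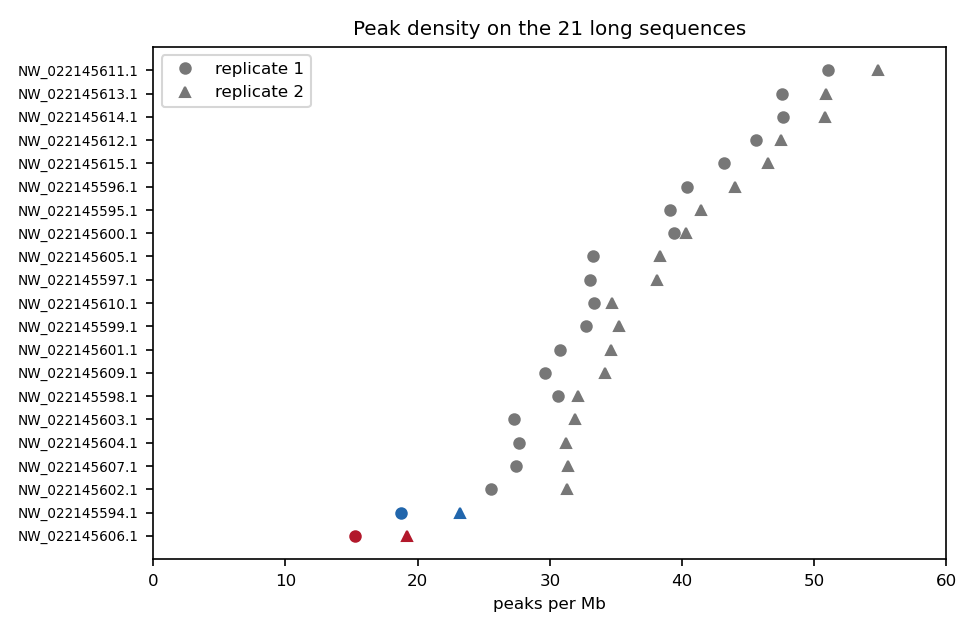
Peaks per Mb on the 21 long sequences, ordered by the mean of the replicates. Circles are replicate 1 and triangles replicate 2, with NW_022145606.1 in red, NW_022145594.1 in blue and the other 19 sequences in grey. The red and blue points lie between 15.3 and 23.2, below all grey points.

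The profile of NW_022145606.1 in bins of 1 Mb was low along its whole length. Over its 52 whole bins the median was 15 peaks in replicate 1, the middle 50% of bins held 8 to 19, and the full spread was 1 to 38. In replicate 2 the median was 17.5, the middle 50% held 11 to 24, and the full spread was 3 to 47. No bin was empty in either list. The richest bin was 6000001 to 7000000, with 38 peaks in replicate 1 and 47 in replicate 2, of which 24 and 22 were found in the other list. Next came 16000001 to 17000000, with 31 and 46 peaks, and 8000001 to 9000000, with 34 and 38. The median of the 714 bins on the other 19 sequences was 35 peaks in replicate 1 and 39 in replicate 2, and 1 of 52 bins reached it in replicate 1 and 3 of 52 in replicate 2.

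At the poor end of NW_022145606.1, the first 1 Mb held 1 peak in replicate 1 and 3 in replicate 2. The bin from 49000001 to 50000000 held 4 and 3 peaks, and that from 40000001 to 41000000 held 3 and 5. Each of these bins had 1 region called in both lists. Bins with at most 5 peaks numbered 7 of 52 in replicate 1 and 5 of 52 in replicate 2, or 13.5% and 9.62%. On the other 19 sequences such bins were 15 of 714 and 7 of 714, or 2.10% and 0.980%.

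NW_022145594.1 had a more uneven profile, in which rich bins stood beside nearly bare ones. Its 53 whole bins held 0 to 54 peaks in replicate 1 (median 15) and 4 to 62 in replicate 2 (median 20). The richest were 33000001 to 34000000, with 50 and 62 peaks, 9000001 to 10000000, with 51 and 58, and 17000001 to 18000000, with 54 and 49. These bins were above the median bin of the other 19 sequences in both lists. In all, 9 of 53 bins reached that median in replicate 1 and 10 of 53 in replicate 2. The coefficient of variation over bins was 0.727 in replicate 1 and 0.653 in replicate 2, against a median of 0.485 and 0.473 on the other 19. The highest of these, on NW_022145602.1, was 0.775 in replicate 1 and 0.631 in replicate 2, so an uneven profile was not particular to NW_022145594.1. On NW_022145606.1 it was 0.563 and 0.602. In replicate 1, 13 of the 53 bins of NW_022145594.1 held 50% of its peaks, and in replicate 2 it was 14 bins.

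The poorest bins of NW_022145594.1 were 14000001 to 15000000, with 0 peaks in replicate 1 and 5 in replicate 2, 38000001 to 39000000, with 1 and 4, and 16000001 to 17000000, with 1 and 5. None of the peaks in these bins was found in the other list. The 3 neighbouring bins from 14000001 to 17000000 held 4 peaks in replicate 1 and 14 in replicate 2, of which 2 in each list were shared. Directly beside them lay the bin from 17000001 to 18000000, which held 54 and 49 peaks. This run of bins was singled out after its values had been seen. The richest window of 100 kb on the sequence, 17900001 to 18000000, lay in that rich bin and held 21 peaks in replicate 1 and 16 in replicate 2. On NW_022145606.1 the richest windows of 100 kb were 15900001 to 16000000 and 35100001 to 35200000, both with 11 and 15 peaks.

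**Figure D2:**
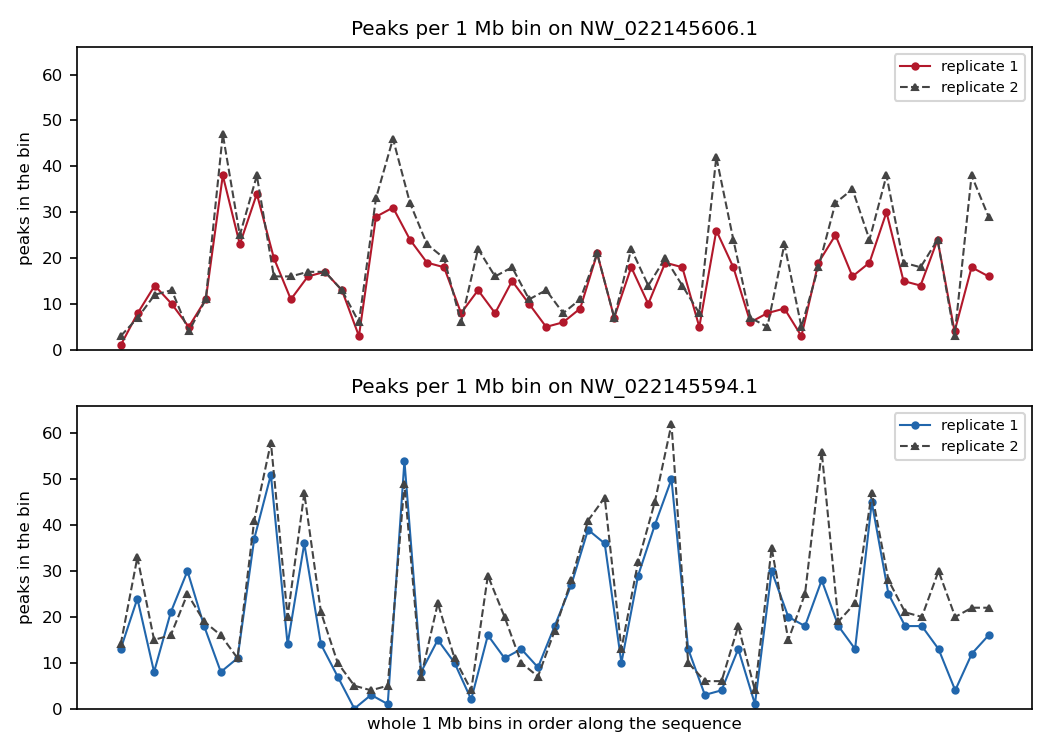
Number of peak summits in each whole 1 Mb bin, in order along NW_022145606.1 (above) and NW_022145594.1 (below). Solid lines with circles are replicate 1 and dashed lines with triangles replicate 2. The lines of the replicates largely run together (r of 0.889 above and 0.917 below), and counts reach 47 on the first sequence and 62 on the second.

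Both replicates drew a similar profile. Across bins, Pearson's r between the replicates was 0.889 on NW_022145606.1 (Spearman's rho 0.882, 52 bins) and 0.917 on NW_022145594.1 (rho 0.879, 53 bins). These are descriptions, since bins share their libraries and are not independent. On the other 19 sequences r ran from 0.897 to 0.975, so the value of NW_022145606.1 was lower than all of them. By Spearman's rho, which ran from 0.866 to 0.980 there, it lay within the range. Counts were higher in replicate 2 in 37 of 52 bins of NW_022145606.1 and in 43 of 53 bins of NW_022145594.1.

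The excess of replicate 2 was larger here than elsewhere. It had 1.26 times as many peaks as replicate 1 on NW_022145606.1 and 1.24 times on NW_022145594.1, the highest ratios among the 21 sequences. The third highest, 1.23, was on NW_022145602.1, the third lowest in density, and the other 19 sequences together had a ratio of 1.09. It was spread over most bins, and a few differed more. On NW_022145606.1, the bin from 50000001 to 51000000 had 18 peaks in replicate 1 and 38 in replicate 2, and that from 43000001 to 44000000 had 16 and 35. On NW_022145594.1, the bin from 42000001 to 43000000 had 28 and 56. The last 4 whole bins of that sequence, 49000001 to 53000000, had 45 peaks in replicate 1 and 94 in replicate 2, a ratio of 2.09, while 31 and 32 of these peaks were found in the other list. Bins with such differences were picked after their values had been seen.

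Spacing differed from the other sequences at long distances. On NW_022145606.1 the distance between neighbouring summits had a lower quartile of 3260 bp in replicate 1 and 3018 bp in replicate 2, within the range of the other 19 sequences (2101 to 3715 bp and 2024 to 3477 bp). Its median was 17743.5 bp and 13740.5 bp, above the highest value elsewhere, 12760.0 bp by replicate 1 and 11593.5 bp by replicate 2. Its upper quartile was 65178 bp and 49152 bp, or 2.06 and 1.70 times the median of the other sequences. NW_022145594.1 followed the same order, with a lower quartile of 3120 bp in replicate 1 and 2993 bp in replicate 2, a median of 12953.5 bp and 11748.0 bp, and an upper quartile of 47986 bp and 43180.0 bp.

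Close neighbours made up a share of the pairs within the range of the other sequences. Summits less than 1 kb apart made up 18.0% of neighbouring pairs of NW_022145606.1 in replicate 1 (95% Wilson interval 15.5 to 20.8%) and 18.2% in replicate 2 (15.9 to 20.7%). On NW_022145594.1 the shares were 17.3% (15.1 to 19.8%) and 15.7% (13.8 to 17.8%). Elsewhere the share was 15.0 to 19.5% in replicate 1, and 12.9 to 18.7% in replicate 2. These intervals, like all Wilson intervals given here, cover counting error only. Per Mb, such pairs were fewer than on any other long sequence. They numbered 2.75 and 3.49 on NW_022145606.1 and 3.24 and 3.64 on NW_022145594.1, against at least 3.87 and 4.13 elsewhere. Their number per Mb is not independent of peak density.

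Pairs 1 to 10 kb apart were scarcer on NW_022145606.1. They were 21.4% and 24.9% of the pairs of NW_022145606.1 in replicates 1 and 2, the lowest shares of the 21 sequences, where the others had at least 26.6% and 29.5%. On NW_022145594.1 they were 26.56% and 30.1%, just below the lowest other share in replicate 1 (26.61%) and within the range in replicate 2. Pairs at least 100 kb apart were more frequent, at 17.9% and 14.1% of the pairs on NW_022145606.1 and 12.5% and 12.02% on NW_022145594.1. No other long sequence exceeded 9.16% in replicate 1 or 7.94% in replicate 2.

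**Figure D3:**
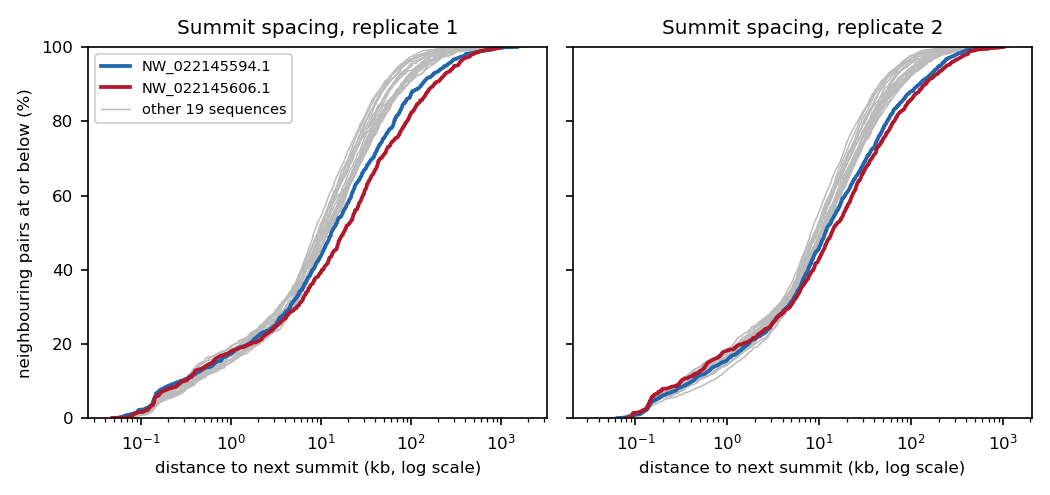
Cumulative share of neighbouring pairs of summits (percent) against the distance between them (kb, log scale), for replicate 1 (left) and replicate 2 (right). Red is NW_022145606.1, blue NW_022145594.1, and each thin grey line 1 of the other 19 sequences. Below 1 kb the lines run together, while at 100 kb both coloured lines lie below all grey ones.

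Stretches over 100 kb without a peak made up 73.2% of NW_022145606.1 in replicate 1 and 67.8% in replicate 2. They made up 66.6% and 62.0% of NW_022145594.1, while on the other 19 sequences the highest share was 57.4% in replicate 1 and 49.6% in replicate 2. With both lists joined, 133 such stretches with a peak in neither list summed to 32.0 Mb on NW_022145606.1, and 143 summed to 30.2 Mb on NW_022145594.1. A lower number of peaks lengthens these stretches whatever their order along the sequence, so this share is not independent of density. In windows of 100 kb, 47.9% of NW_022145606.1 was empty in replicate 1 and 42.4% in replicate 2, and the windows that held peaks had 2.92 and 3.32 on average. The other 19 sequences had at most 33.7% and 26.7% empty windows and at least 3.84 and 4.11 peaks per filled window. On NW_022145594.1, 44.5% and 34.5% of windows were empty and filled ones held 3.38 and 3.55 peaks.

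The longest bare stretch of NW_022145606.1 was 49980 to 1069502 by replicate 1 (1020 kb) and 50019 to 1069122 by replicate 2 (1019 kb). Both lists thus bounded it at nearly the same places. Another, at 34129032 to 35023880 in replicate 1 (895 kb), was bounded in replicate 2 at 34137686 to 35030453 (893 kb). On NW_022145594.1 the longest stretch depended on the list. It was 13852051 to 15346344 in replicate 1 (1494 kb), where replicate 2 had peaks, and 12745967 to 13434329 in replicate 2 (688 kb). The longest with no peak in either list was that of replicate 2. A long bare stretch was not particular to these sequences. Elsewhere the longest reached 1901 kb in replicate 1 and 1233 kb in replicate 2. With both lists joined, NW_022145606.1 ranked 3 from the longest among the long sequences and NW_022145594.1 ranked 7.

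Peaks were narrowest on NW_022145606.1, while those of NW_022145594.1 lay within the range of the other sequences. On NW_022145606.1 they had a median width of 191 bp (replicate 1) and 196 bp (replicate 2), below the range of the other 19 sequences (209 to 247 bp and 213 to 248 bp). Its interquartile range was 109 to 274 bp in replicate 1 and 110 to 281.5 bp in replicate 2. On NW_022145594.1 the median was 209 bp and 217.5 bp, at the low end of that range. Those no wider than 120 bp were 35.1% of the peaks of NW_022145606.1 in both replicates (281 and 353 peaks), the highest share of the 21 sequences, with 95% Wilson intervals of 31.9 to 38.5% and 32.2 to 38.1%. On NW_022145594.1 they made up 32.4% (29.5 to 35.3%) and 31.2% (28.7 to 33.9%), within the range of single other sequences, which reached 33.5% and 31.8%. Over the other 19 sequences together they were 27.9% (27.4 to 28.4%) in replicate 1 and 27.3% (26.8 to 27.8%) in replicate 2. The widest peak of NW_022145606.1 was the same region in both lists, 21909396 to 21910246 in replicate 1 (851 bp) and 21909385 to 21910247 in replicate 2 (863 bp).

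The shortfall was largest among the strongest peaks, with no steady order among the weaker ones. Each list was ranked by −log10 p and cut into 5 equal classes of strength over all sequences. NW_022145606.1 had 2.31 peaks per Mb in the strongest class of replicate 1, which was 0.310 times the density on the other 19 sequences, and 3.24 per Mb in the weakest, 0.440 times. In replicate 2 these were 2.69 per Mb (0.328 times) and 4.35 per Mb (0.545 times). On NW_022145594.1 the strongest class was present at 0.451 and 0.497 times the density elsewhere and the weakest at 0.556 and 0.674 times. The 4 classes below the strongest ran from 0.401 to 0.475 times in replicate 1 and 0.446 to 0.582 times in replicate 2 on NW_022145606.1. On NW_022145594.1 they ran from 0.490 to 0.556 times and 0.559 to 0.674 times. Peaks of the strongest decile made up 7.12% of NW_022145606.1 in replicate 1 (95% Wilson interval 5.53 to 9.11%) and 6.16% in replicate 2 (4.83 to 7.81%). On the other 19 sequences together they made up 10.3% (9.92 to 10.6%) and 10.4% (10.04 to 10.7%). The lowest single shares there, 7.57% and 7.67%, were both those of NW_022145602.1, not far above NW_022145606.1. For NW_022145594.1 the shares were 9.05% (7.42 to 10.99%) and 8.52% (7.09 to 10.2%). Those of NW_022145594.1 thus lay within the range of single other sequences.

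Summit pileup, the number of extended reads at the top of a peak, was solved from the deposited fold and −log10 p. Its median was 11 reads in replicate 1 and 12 in replicate 2 on NW_022145606.1, and single peaks had 5 to 84 and 6 to 89 reads. On NW_022145594.1 it was 12 and 13, and over the other 19 sequences the medians ran from 12 to 16 and from 13 to 17. The authors' fold over background did not follow this order. Its median was 5.62 and 5.52 on NW_022145606.1 and 5.80 and 5.33 on NW_022145594.1, within the range of the other 19 sequences (5.37 to 5.84 and 5.18 to 5.52). The background solved beside the pileup averaged 1.31 and 1.56 reads at the peaks of NW_022145606.1, the lowest of the 21 in both replicates, and 1.497 and 1.799 on NW_022145594.1, against medians of 1.72 and 2.04 elsewhere. That average takes in peaks with close neighbours. At isolated peaks (isolation distance 20 kb) it was 0.951 and 1.067 reads on NW_022145606.1, again the lowest of the 21. Elsewhere the medians were 1.066 and 1.276, and the lowest values 0.972 and 1.121. On NW_022145594.1 it was 0.977 and 1.145, within the range elsewhere. The part of this background in the pileup and density was not tested.

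Agreement between the replicates was then measured peak by peak, with an overlap of at least 1 bp counted as found. As the background, a partner was found for 69.0% of all peaks in replicate 1 and 60.8% in replicate 2, and on the 21 long sequences alone for 69.1% and 61.1%. Of the 801 peaks of NW_022145606.1 in replicate 1, 540 were found in replicate 2, or 67.4% (95% Wilson interval 64.1 to 70.6%). In the other direction 522 of 1007 were found, or 51.8% (48.7 to 54.9%). NW_022145594.1 gave 660 of 995, or 66.3% (63.3 to 69.2%), and 636 of 1232, or 51.6% (48.8 to 54.4%). From the side of replicate 1 both lay within the range of the other 19 sequences, 62.4 to 73.8%. From the side of replicate 2 they were the lowest of the 21, below the range of 54.6 to 66.9%. The shared counts were nearly the same from both sides, so this share is not independent of the excess of replicate 2.

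When overlapping peaks of both lists were joined, NW_022145606.1 had 1241 regions, of which 495 were held by both lists, 261 by replicate 1 only and 485 by replicate 2 only. NW_022145594.1 had 1539, of which 608 were held by both, 335 by replicate 1 only and 596 by replicate 2 only. The share held by both was 39.9% (95% Wilson interval 37.2 to 42.6%) and 39.5% (37.1 to 42.0%), and on the other 19 sequences it ran from 41.7 to 52.3%. It too is not independent of the excess of replicate 2. Regions held by both lists numbered 9.44 and 11.5 per Mb, against at least 16.0 on the other 19 sequences.

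The strongest peaks were found in both lists nearly without exception, as elsewhere. In the strongest class, 119 of 121 peaks of NW_022145606.1 in replicate 1 and 141 of 141 in replicate 2 had a partner, and on NW_022145594.1 it was 176 of 178 and 210 of 216. On the other 19 sequences 99.2% and 98.9% had one. In replicate 2, the share was lower on both sequences than on the other 19 together in every class below the strongest. Peaks are not replicates, and the pooled value of the other 19 hides the spread between sequences, so the intervals serve as description only. In the second class, 72.5% of the peaks of NW_022145606.1 (66.1 to 78.1%) and 77.0% of those of NW_022145594.1 (71.2 to 81.9%) were found in replicate 1, against 87.7% (86.8 to 88.5%) on the other 19 sequences. In the third class the shares were 53.6% (46.3 to 60.6%) and 45.6% (39.6 to 51.6%), against 61.7% (60.4 to 62.9%). In the fourth class they were 35.7% (29.9 to 41.8%) and 31.6% (26.1 to 37.8%), against 37.3% (36.1 to 38.6%). In the weakest class they were 18.9% (14.3 to 24.4%) and 18.2% (14.2 to 23.1%), against 22.8% (21.7 to 23.9%). In the fourth and the weakest class the shares thus lay closer to those of the other 19. From the side of replicate 1, NW_022145606.1 had a higher share than the other 19 together from the third class to the weakest. NW_022145594.1 had a lower one there. In the second class NW_022145606.1 had 86.2% (79.8 to 90.8%), against 92.1% (91.4 to 92.8%).

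**Figure D4:**
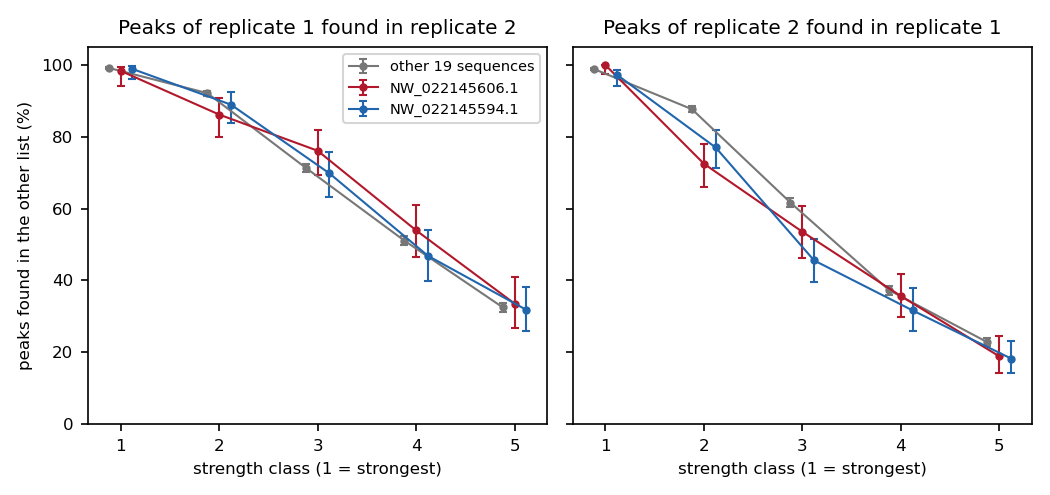
Share of peaks found in the other list (percent), by class of strength within the list, from the strongest to the weakest, for replicate 1 (left) and replicate 2 (right). Red is NW_022145606.1, blue NW_022145594.1 and grey the other 19 sequences together, and bars are 95% Wilson intervals. In the second class of replicate 2 the coloured points, at 72.5% and 77.0%, lie below the grey point at 87.7%.

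Distances between the summits of shared peaks are given as a description. Shared peaks overlap by definition, so short distances follow largely from that rule. These distances were not compared with those on the other long sequences. The median distance to the nearest summit of the other list was 36.5 bp for the 540 shared peaks of NW_022145606.1 and 41 bp for the 660 of NW_022145594.1, and 79.1% and 78.6% were within 100 bp. Shared peaks were wide, with a median of 243 bp in replicate 1 and 262 bp in replicate 2 on NW_022145606.1, against 114 bp and 119 bp for peaks without a partner. On NW_022145594.1 the medians were 253 bp and 275 bp for shared peaks, against 111 bp and 121 bp.

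The 5 strongest shared regions of each sequence, by the mean of the ranks within both lists, included some of the strongest peaks of the whole lists. The choice depends on the ranking by −log10 p: ranking by fold kept 1 of the 5 on NW_022145606.1 and 2 of the 5 on NW_022145594.1. On NW_022145594.1 the first covered 3436000 to 3436450 by the list of replicate 1 and 3435978 to 3436445 by that of replicate 2. It was the strongest peak of the whole list in replicate 2 and ranked 17 in replicate 1, where its fold was 18.6, against 19.96 in replicate 2, over a pileup of 84 and 102 reads. The second, at 17573625 to 17574023 in replicate 1, ranked 36 and 3 and had the highest fold of the 10 regions, 23.2 and 24.6. It lay in the rich bin beside the 3 nearly bare ones. The third, at 29945797 to 29946383, was the strongest peak of the sequence in replicate 1, with 96 reads there and 98 in replicate 2, but its fold was 15.4 and 13.9, over a background of 5.28 and 6.14 reads.

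The fourth region of NW_022145594.1 was at 5649764 to 5650271, with a fold of 17 and 19.2, and the fifth at 8708864 to 8709256, with 14.9 and 15.0. All 5 ranked between 14 and 107 in replicate 1 and between 1 and 70 in replicate 2, and their summits differed by 5 to 23 bp. They were 393 to 587 bp wide in replicate 1 and 416 to 572 bp in replicate 2. The sequence held 4 of the 100 strongest peaks in replicate 1 and 6 in replicate 2. It held 3.53% and 3.98% of all peaks on the long sequences, and made up 6.42% of their length. The counts among the 100 strongest are too small to set against these shares. In the larger strongest class of 5, its density was 0.451 and 0.497 times that on the other 19 sequences.

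NW_022145606.1 held 3 of the 100 strongest in each replicate. Its share of all peaks on the long sequences was 2.84% and 3.25%, and here too the counts are too small to compare. Its first region covered 21884365 to 21884824 by replicate 1 and 21884381 to 21884792 by replicate 2. It ranked 47 and 45, with a fold of 15.0 and 14.4 and a pileup of 84 and 89 reads. The second was at 32198578 to 32199054, with a fold of 15.6 and 17.2, and the third at 16635343 to 16635816, with 16.5 and 16.1. The fourth, at 7956616 to 7956984, had a fold of 17.9 and 14.8. The fifth, at 13664414 to 13664847, had 17.7 and 22.3, and it stood alone, with the nearest summit 412 kb away in replicate 1 and 148 kb away in replicate 2. The 5 ranked between 47 and 677 in replicate 1 and between 45 and 521 in replicate 2, and summits differed by 9 to 73 bp.

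The height of a shared region could differ between the lists. On NW_022145606.1 the strongest peak in replicate 1, at 36241512 to 36241918, ranked 15 with a fold of 23.9 and 72 reads. In replicate 2 the same region, at 36241530 to 36241902, ranked 1751 with a fold of 14.7 and 33 reads, and it was therefore not among the 5. Coordinates count from 1 on the deposited sequence names, and their genome build is not stated in the sources used here.

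**Figure D5:**
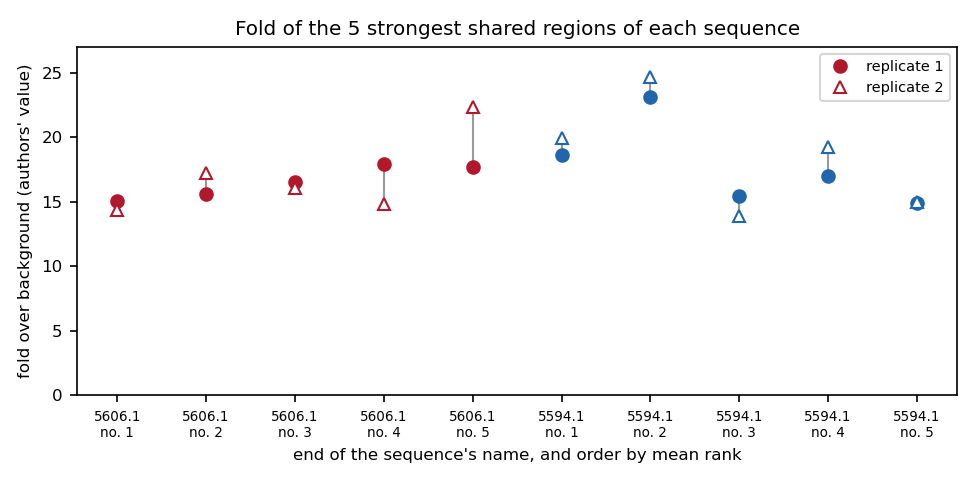
Fold over background, the authors' value, of the 5 strongest shared regions of NW_022145606.1 (red) and NW_022145594.1 (blue). Filled circles are replicate 1 and open triangles replicate 2, joined by a line. Values run from 13.9 to 24.6, and the widest gap is that of the fifth region of NW_022145606.1, at 17.7 and 22.3.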

How the data were processed

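The authors deposited 1 peak list per replicate, in narrowPeak layout without a header, called per sample, as their row names show. The submitters' processing notes name Bowtie2, SAMtools and MACS2. Versions, settings and genome build were not stated in those notes or in the labels. Each deposited peak has a summit and the authors' display score, fold over background (a ratio) and −log10 values of p and q. These values were used only within their list. The sequences and the comparisons were chosen with earlier results of these data known.

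Lists hold no read totals. Pileup and background were solved from fold, taken as (pileup + 1)/(background + 1), and the Poisson −log10 p, within 5e-05, for 29456 of 29456 and 32554 of 32554 peaks. The most frequent background, 0.671 reads in replicate 1 and 0.813 in replicate 2, was taken as the library-wide level, and no lower one was accepted. Bins count summits, and the last part-bin was left out. Named regions are the 5 shared regions of each sequence with the best mean rank by −log10 p and its 3 richest and 3 poorest bins. Ties among bins were kept in sequence order. With 1 group of 2 samples no test was made. Alternatives covered the threshold on peaks, overlap rule, merging of neighbours, list length, sequence length, bin size and start, and ranking. On simulated data, 0 of 17040 peaks were matched wrongly and 100% of 4986 pileups were recovered. Genes could not be placed on these sequences with the tables at hand, so promoters and genes were not analysed here. Python 3.11.15, numpy 2.4.6, pandas 2.3.3, scipy 1.17.1 and matplotlib 3.10.9 were used.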

Additional observations from a re-analysis of the deposited data

How the results depend on the processing

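Values are means of the replicates, given for NW_022145606.1 and then NW_022145594.1. Only changes beyond the SD of the replicates are given (beyond 1.5 times for counts of empty bins). With 2 replicates, leaving one out cannot exceed that SD, so it says nothing about stability. The count of empty bins of NW_022145594.1 ran from 0 to 1 when each replicate was left out. Lengths are lower bounds, and weak peaks rested on a median pileup of 7 or 8 reads. Keeping fewer peaks lowers density and bin counts and lengthens spacing and bare stretches by construction. Merging likewise removes close pairs. Such changes therefore say nothing about stability, and the cause of the other changes below was not tested.

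Both sequences had the lowest density of the 21 under every alternative run for density. They were chosen for low density in these lists, and the alternatives reuse the same peaks. That order was thus largely fixed in advance and is no independent support. In the better-ranked 50% of each list, density was 7.74 and 9.78 peaks per Mb, or 0.426 and 0.539 times the median of the other sequences. Median width was 284 and 294 bp, narrow peaks (at most 120 bp) 7.53% and 6.05%, median spacing 37329 and 29088.5 bp, and close pairs (summits under 1 kb apart) 11.2% and 9.13%. Bare stretches over 100 kb made up 85.3% and 81.4%, the longest was 1625 and 1692 kb, median fold was 7.68 and 7.69, and median pileup 17.5 and 20 reads. The median bin held 7 and 8 peaks, the richest bin 21 and 30.0, and 1.5 and 3.5 bins were empty, where the 1.5 is the mean of 3 in replicate 1 and 0 in replicate 2. The shared share of NW_022145594.1 was 71.0%.

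With a −log10 p of at least 10, density was 6.91 and 8.86 peaks per Mb, or 0.425 and 0.546 times the median elsewhere. Median width was 289.5 and 300.0 bp, narrow peaks 6.32% and 4.83%, median spacing 40812 and 34226 bp, and close pairs 9.76% and 8.59%. Bare stretches made up 87.1% and 82.7%, the longest was 1625 and 1697 kb, median fold was 8.05 and 8.09, and median pileup 18.5 and 21 reads. The median bin held 6 and 7.5 peaks, the richest bin 18.5 and 29, and 1.5 (again 3 and 0) and 4 bins were empty. The shared share of NW_022145594.1 was 72.4%.

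Merging neighbours up to 100 bp apart gave a median width of 234 and 242 bp, a median spacing of 21131.5 and 16301 bp, and 7.88% and 6.62% close pairs. Counting only peaks found in both replicates gave 10.1 and 12.2 peaks per Mb, 0.544 times the median elsewhere on NW_022145594.1, and 83.3% and 77.9% in bare stretches. The shared share was 41.6% and 44.1% when overlaps had to cover at least 50% of each peak, and 47.7% and 47.04% with summits within 100 bp. With the strength mix of the other 19 sequences, narrow peaks made up 31.8% and 30.2%. Bins shifted by 500 kb left 0 empty on NW_022145594.1. Ranking by fold kept 1 and 2 of the 5 strongest regions. The strength mix and the alternatives for bare stretches were added once the data had been seen. Alternatives for genes and for reference lengths were not run, since no placed annotation or genome was used. No paired analysis was possible because all samples belong to 1 group.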
